A study of Mus musculus with 11 samples.

Results

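The Hox cluster genes encode homeodomain transcription factors that lie side by side in 4 chromosomal clusters, Hoxa, Hoxb, Hoxc and Hoxd. They were chosen as a list of 38 genes, 10 in Hoxa, 10 in Hoxb, 9 in Hoxc and 9 in Hoxd, out of 20145 genes that the probes of the array could be named for. Each probe was tied to its gene through the RefSeq accession in the array annotation. The samples were mouse mammary epithelial cells, RNA of which was hybridised to one-colour Agilent arrays, a platform that reports a fluorescence intensity per probe. Primary cells had been infected with a lentivirus carrying a short hairpin RNA, suspended in matrigel and injected to form outgrowths. Luminal and basal cells were then sorted from the outgrowths by the surface proteins CD24 and CD29. The 11 arrays fell into 4 groups, luminal shLUC with 3, luminal shROR2 with 2, basal shLUC with 3 and basal shROR2 with 3. shLUC is the control hairpin and shROR2 the hairpin against Ror2, a receptor tyrosine kinase for Wnt ligands, and cells of all 4 groups went through infection and outgrowth. The study asked what Ror2 does in each of the 2 epithelial layers. The labels speak of biological triplicates and give neither the strain, age and host of the animals nor which samples came from the same outgrowth, so p-values measure the spread between these samples.

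Hox proteins bind DNA through the homeodomain, often together with the cofactors Pbx, Meis and Pknox, and tell cells where along the body axis they are. Genes at one end of a cluster are active towards the head and genes at the other end towards the tail, and genes at the same place in different clusters are paralogues that carry the same number. Polycomb proteins keep the clusters silent where they are not used, trithorax proteins and retinoic acid support their activity. In the mammary gland, Hoxa9, Hoxb9 and Hoxd9, paralogues of each other, are jointly needed for the growth of the gland in pregnancy, and Hoxc8 takes part in placing the embryonic mammary buds.

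Hoxd9 was the only tested member that passed between basal and luminal cells. Its direct neighbours in the cluster, Hoxd8 and Hoxd10, were each above background on 1 array and too dim to be tested. The 250 bases upstream of the start of each of the 3 genes are shown side by side. The sequences are from RefSeq promoters of build GRCm38.p6, all on the plus strand, and capitals mark CG dinucleotides, the sites of DNA methylation. Hoxd9 spans chr2:74697513-74697762, Hoxd10 chr2:74691641-74691890 and Hoxd8 chr2:74704365-74704614.
Hoxd10: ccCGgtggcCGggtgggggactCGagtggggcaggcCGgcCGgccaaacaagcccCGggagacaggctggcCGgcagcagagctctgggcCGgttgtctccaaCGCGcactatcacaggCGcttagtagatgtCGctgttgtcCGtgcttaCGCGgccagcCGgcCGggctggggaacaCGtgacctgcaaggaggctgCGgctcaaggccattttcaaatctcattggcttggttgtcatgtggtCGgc
Hoxd9: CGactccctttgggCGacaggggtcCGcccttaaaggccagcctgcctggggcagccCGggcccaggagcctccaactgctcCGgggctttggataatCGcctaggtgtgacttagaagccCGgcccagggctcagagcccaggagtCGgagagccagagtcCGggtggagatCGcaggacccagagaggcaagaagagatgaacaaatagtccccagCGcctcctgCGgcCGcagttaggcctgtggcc
Hoxd8: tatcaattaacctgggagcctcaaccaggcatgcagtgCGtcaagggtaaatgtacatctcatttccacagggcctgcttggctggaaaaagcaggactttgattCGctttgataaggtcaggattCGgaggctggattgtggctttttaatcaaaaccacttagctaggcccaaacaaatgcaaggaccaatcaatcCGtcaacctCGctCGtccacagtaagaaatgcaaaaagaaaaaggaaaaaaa
The Hoxd9 window held 13 CG dinucleotides, more than 68.5% of all 32851 promoter windows of that length, and its GC content was 65.2%. Hoxd10 held 20 of them and Hoxd8 held 6, so Hoxd9 lay between its neighbours. RefSeq promoters were found for 22 of the 38 members, in 24 windows with a median of 12.5 CG dinucleotides against 6 over all promoters. Of those 22 members, 10 held the GC box GGGCGG, which 32.7% of all windows hold, 4 held the Pbx and Hox motif TGATNNAT, which 7.68% hold, and 2 held the Meis and Pknox motif TGACAG, which 15.9% hold. The Tead motif CATTCC was found in 1 member and in 12.6% of all windows, and the E-box CAGGTG in 0 members and in 17.2% of all windows. All motifs were read on both strands, and hits of the same motif could overlap. Of the 3 windows shown, Hoxd9 held 1 GGGCGG, on the opposite strand, and the windows of Hoxd8 and Hoxd10 held none of the 5 motifs.

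The arrays were alike in brightness, with a 75th percentile of the processed signal between 112 and 131 and with 52.8% to 59.5% of all probes well above background. Correlations between arrays of the same group were 0.976 to 0.983 in 3 groups and 0.941 to 0.953 in basal shROR2, whose arrays differ most among themselves. The sorted cells matched their labels. Basal markers such as Krt5 and Acta2 summed to 116 to 129 times the array's 75th percentile in luminal cells and to 1619 to 1968 in basal cells, and luminal markers such as Krt8 and Epcam to 518 to 585 in luminal and 84.7 to 128 in basal cells. Ror2 itself could not be checked, because its only probe was well above background on 1 of 11 arrays. Its signals were 3.14, 3.44 and 3.48 on the luminal arrays with shLUC, 3.54 and 8.47 on those with shROR2, 11.1, 12.1 and 10.1 on the basal arrays with shLUC, and 16.8, 3.03 and 6.93 on those with shROR2.

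Most Hox genes were dim in these cells. A probe is called well above background when the scanner software gives its spots that flag. A probe without the flag may still be brighter than the surrounding surface. Of the 38 members, 15 were well above background on no array, or 39.5% against 22.1% of all named genes. They were Hoxa2, Hoxa4, Hoxa6, Hoxa10, Hoxa11, Hoxb1, Hoxb3, Hoxb7, Hoxb8, Hoxb13, Hoxc12, Hoxc13, Hoxd1, Hoxd3 and Hoxd11, with members of all 4 clusters among them. Another 10 reached that level on 1 or 2 arrays, and 13 on at least 3, which was the filter for testing. Only Hoxa7, Hoxb9, Hoxc5 and Hoxd12 were above background on all 11 arrays, 10.5% of members against 52.9% of named genes. A gene that is not above background may still be transcribed, since only a bound on its level was measured.

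More members could be measured in basal than in luminal cells. Per array, 12 or 13 members were well above background in the 6 basal arrays (mean 12.7 ± 0.516 SD) and 7 to 9 in the 5 luminal arrays (8 ± 0.707 SD), so the counts did not overlap. Over all named genes the shares were 63.0% to 64.1% on luminal and 63.2% to 68.3% on basal arrays. In all, 12 members were above background only on basal arrays, 31.6% of members against 7.67% of named genes. They were Hoxa3, Hoxa5, Hoxb5, Hoxb6, Hoxc6, Hoxc9, Hoxc10, Hoxc11, Hoxd4, Hoxd8, Hoxd9 and Hoxd10. Of these, Hoxd9 was above background on all 6 basal arrays, Hoxa3 on 3, and the other 10 on 1 or 2. There were 6 basal arrays and 5 luminal ones to be seen on. Genes above background on all arrays, 52.9% of named genes and 10.5% of members, cannot enter this count, so the shares are not fully alike. The reverse, above background only on luminal arrays, held for 0 members and for 2.93% of named genes. The limit itself moved with the split, since the dimmest probe called above background had a signal of 12.4 to 14.2 on luminal arrays and 9.88 to 12.6 on basal arrays. With the same scaled limit on every array, an alternative added after the data were seen, the counts were 10 to 13 on basal and 7 to 10 on luminal arrays, so that they met at 10.

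**Figure D1:**
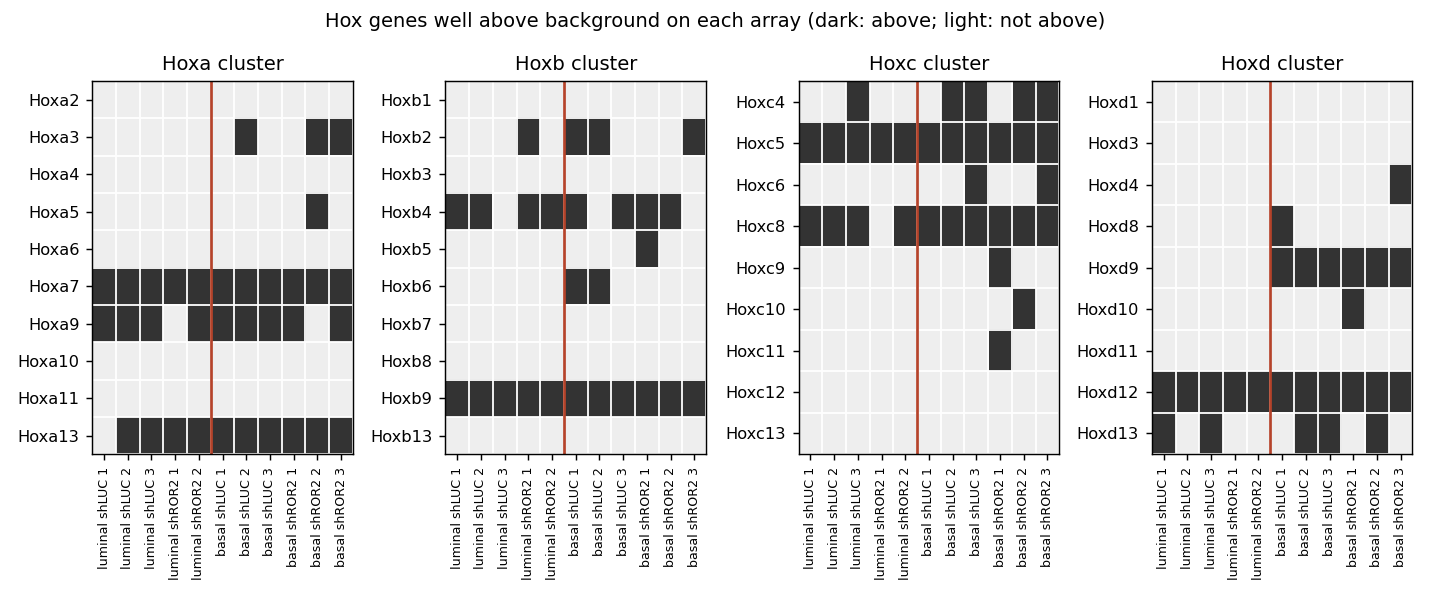
Hox genes well above background (dark) or not (light) on each of the 11 arrays, 1 panel per cluster, genes in rows in order of their number, arrays in columns, with a red line between luminal and basal arrays. Hoxd9 is dark on all 6 basal arrays and on 0 of the 5 luminal arrays. The tested spot of Hoxa13 on luminal shLUC 1 was marked as an outlier by the scanner and dropped.

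Markers of fibroblasts moved with the same split. Of 12 such genes 11 were on the array, and their summed level was 6.84 to 12.3 times the array's 75th percentile in luminal cells and 54.3 to 70.8 in basal cells. Of the 10 that were tested, 9 were higher in basal than luminal shLUC cells and 7 in basal than luminal shROR2 cells. Lum, Pdgfra, Pdgfrb and Dpt were above background on no luminal array. Lum and Pdgfrb were above background on all 6 basal arrays, while Dpt was on no basal shLUC array and Pdgfra on no basal shROR2 array. Endothelial markers summed to 11.3 to 14.7 in luminal cells, and in basal cells to 21.8 to 26.6 with shLUC and 41.2 to 47.7 with shROR2, with all 8 of 8 above background on every basal array. Adipocyte markers summed to 5.61 to 13.0 in luminal cells, and in basal cells to 22.8 to 25.7 with shLUC and 44.4 to 54.6 with shROR2, with Lep above background on no array of any group and Adipoq and Cfd on none of the luminal or basal shROR2 arrays. Leukocyte markers summed to 90.3 to 92.1 with shLUC and 116 to 118 with shROR2 in luminal cells, and to 60.9 to 65.1 and 92.1 to 103 in basal cells. The part of these cells in the Hox signals was not tested. In bulk RNA of this kind, a change in the number of cells of a type and a change in RNA per cell cannot be told apart.

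Hoxd9 rose in basal over luminal cells, and it was the only one of the 13 tested members that passed the test. The luminal arrays read 9.20, 3.08 and 6.71 with shLUC and 4.66 and 3.21 with shROR2. The basal arrays read 32.1, 35.3 and 96.2 with shLUC and 83.6, 23.1 and 39.8 with shROR2, all as processed signal. Every basal array was higher than every luminal array, and the gene was above background on 6 of 6 basal and 0 of 5 luminal arrays, a pattern shared by 232 of all named genes, or 1.15%. On the scale of the test, log2 signal less the array's 75th percentile, the means were -4.33 ± 0.83 (SD, n = 3) in luminal shLUC and -1.33 ± 0.93 (SD, n = 3) in basal shLUC. The difference was 2.99 ± 0.62 (SE; 95% interval 1.59 to 4.39; limma, adjusted p = 0.00685). Between the shROR2 groups, with means of -4.93 ± 0.33 (SD, n = 2) and -1.42 ± 0.94 (SD, n = 3), it was 3.51 ± 0.69 (SE; 95% interval 1.94 to 5.08; limma, adjusted p = 0.00632). The gene passed the filter through its basal arrays alone. The fitted differences and their intervals rest on luminal readings that were not above background, and they hold for this processing only. The luminal arrays gave only a bound. Against that bound, the mean level was 3.51-fold higher in basal shLUC than luminal shLUC cells and 3.21-fold higher between the shROR2 groups. For that bound each luminal array stood at its own dimmest signal well above background or at the probe's signal, whichever was higher. These folds compare group means, leave out the spread between arrays and hold for this scaling only.

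The Hoxd9 difference was also seen within each slide of arrays. It was 2.56 on slide 1 and 2.79 on slide 2 with shLUC, and 3.73 and 2.85 with shROR2, as log2 differences. Each slide held 1 or 2 arrays of a group, and the luminal readings were not above background, so the sizes are uncertain. With slide as a block it was 2.67 (limma, adjusted p = 0.00643) and 3.35 (limma, adjusted p = 0.00374). With the raw median signal corrected by normexp it was 0.83 and 0.84, while the authors' deposited table gave 0.83 and 0.81, past the threshold each time (limma, adjusted p = 0.018, 0.0345, 0.0127 and 0.0292). Without luminal shROR2 replicate 2, which leaves a single array in that group, the shROR2 difference was 3.28 (limma, adjusted p = 0.0543) and no longer passed, and the lone array was then taken to vary like the other groups. The single member called stands against 26.8% of the 29443 features tested that were called between the shLUC groups, with 13.8% of features higher in basal cells. Between the shROR2 groups 22.9% of features were called, with 10.6% of features higher. Among the 13 tested members the share called was thus below that of all features with both hairpins.

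**Figure D2:**
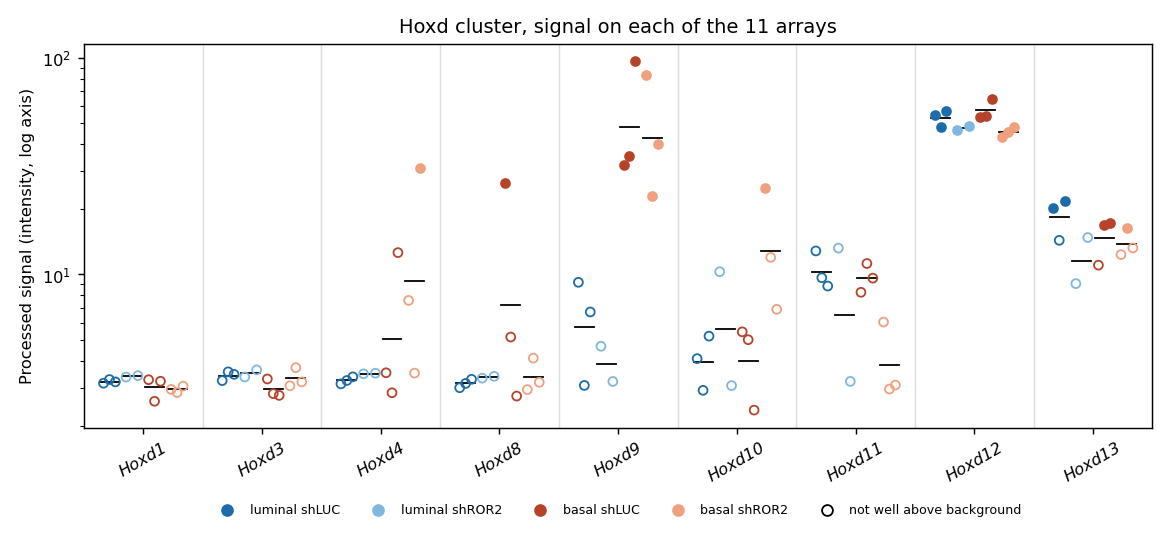
Processed signal, as intensity on a log axis, of the 9 Hoxd genes on each of the 11 arrays, coloured by group, with filled points well above background, open points not, and a bar at the geometric mean of each group. Hoxd9 lies between 23.1 and 96.2 on basal and between 3.08 and 9.20 on luminal arrays. Hoxd8, Hoxd10 and Hoxd4 each have 1 filled point, on a basal array. Levels of different probes cannot be set against each other.

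No other Hoxd gene was above background on all basal and no luminal arrays, as Hoxd9 was. Hoxd4, Hoxd8 and Hoxd10 were near background and were not tested, so whether they followed Hoxd9 could not be told. Hoxd8 gave 26.5 in basal shLUC 1 and 2.75 to 5.14 on all other arrays, and Hoxd10 gave 25.1 in basal shROR2 1 and 2.37 to 12.0 elsewhere. Hoxd4 reached 31.0 in basal shROR2 3 and 2.85 to 12.6 on the other arrays. Each of these neighbours was thus above background on a single basal array, and on a different one. Hoxd11, which lies beyond Hoxd10, ranged from 2.96 to 13.2 and was above background on none, while Hoxd1 and Hoxd3 stayed between 2.60 and 3.71.
Hoxd12 and Hoxd13, at the end of the cluster that is active in the limb tips and genital region, could be measured in both cell types. The signals of Hoxd12 were 54.1, 47.9 and 56.5 on the luminal arrays with shLUC, 46.3 and 48.3 on those with shROR2, 53.4, 54.1 and 64.8 on the basal arrays with shLUC, and 42.9, 45.4 and 48.1 on those with shROR2. The groups overlapped between the cell types, and the basal minus luminal differences were 0.06 (95% interval -0.26 to 0.37) and -0.01 (95% interval -0.36 to 0.35). Hoxd13 ranged from 9.07 to 21.7 and was above background on 5 arrays, 2 luminal and 3 basal.

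Among the paralogues of Hoxd9, Hoxb9 came nearest to a call. Its signals were 20.8, 35.8 and 32.3 on the luminal arrays with shLUC, 27.1 and 28.1 on those with shROR2, 47.5, 60.2 and 58.4 on the basal arrays with shLUC, and 41.8, 22.9 and 58.7 on those with shROR2. All 3 basal shLUC arrays were above all luminal ones, and basal shROR2 2 fell among the luminal values. The difference was 0.87 ± 0.33 (SE; limma, adjusted p = 0.0857) between the shLUC groups and 0.52 ± 0.37 (SE; limma, adjusted p = 0.361) between the shROR2 groups. The shLUC difference passed the threshold without basal shROR2 replicate 2 or 3 (limma, adjusted p = 0.0185 and 0.0414), arrays that enter it through the shared spread, and the shROR2 difference was 0.90 without basal shROR2 replicate 2 (limma, adjusted p = 0.0427).
Hoxa9, a regulator of blood stem cells and of leukaemia, gave 18.1, 17.5 and 14.7 on the luminal arrays with shLUC, 11.6 and 18.4 on those with shROR2, 18.0, 16.3 and 25.7 on the basal arrays with shLUC, and 14.7, 7.44 and 20.8 on those with shROR2. Its groups overlapped, with differences of 0.17 (95% interval -0.71 to 1.05) and -0.10 (95% interval -1.08 to 0.88). Its other probe was above background on 2 basal arrays and dim elsewhere.
Hoxc9 was near the limit of detection, at 3.15, 3.45 and 3.29 on the luminal arrays with shLUC, 4.38 and 3.57 on those with shROR2, 6.60, 2.82 and 2.73 on the basal arrays with shLUC, and 21.0, 11.2 and 13.7 on those with shROR2. The 3 basal shROR2 arrays were the highest, and only the first of them was above background, so the gene did not pass the filter. Tested without that filter, the basal minus luminal difference with shROR2 was 1.95 ± 0.41 (SE; limma, adjusted p = 0.0156) and the shROR2 minus shLUC difference in basal cells was 2.08 ± 0.37 (SE; limma, adjusted p = 0.0745). Of the 25 members that failed the filter, 1 passed without it between the shROR2 groups, namely Hoxc9, beside 11.4% of all features. These fits rest on readings of which 1 of 11 was above background, so the sizes are uncertain. Against the bounds of the dimmer groups, the basal shROR2 mean was 1.11-fold and 1.48-fold higher. These folds leave out the spread, and 1 of 3 basal shROR2 arrays was above background.

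**Figure D3:**
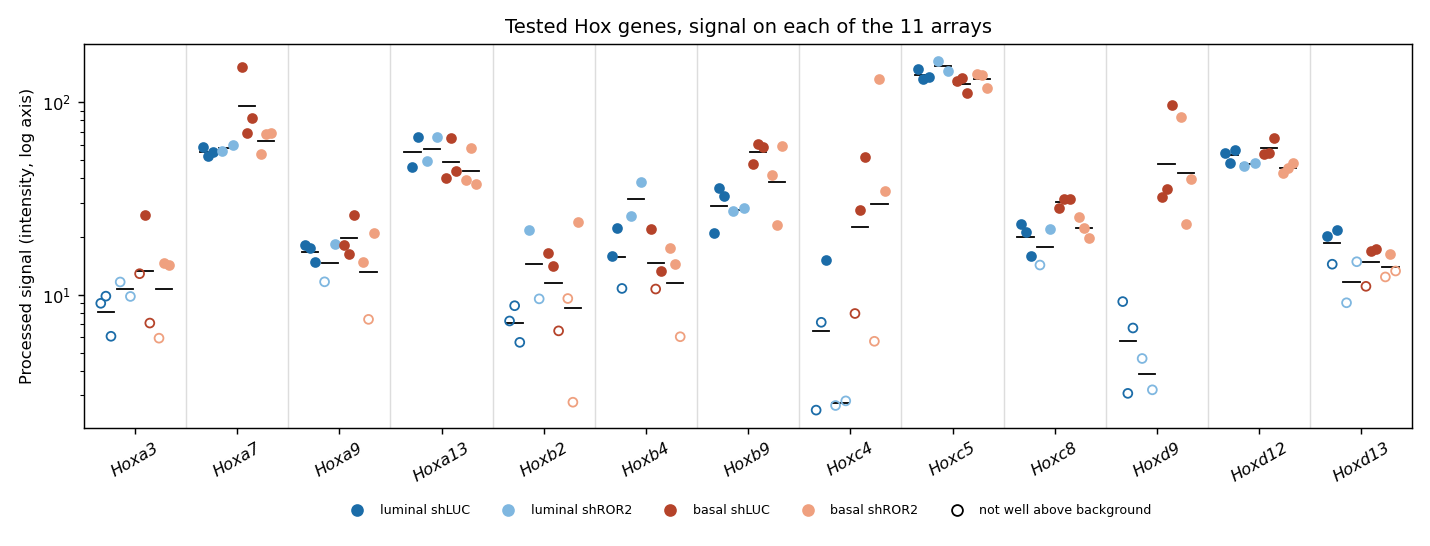
Processed signal, as intensity on a log axis, of the 13 tested Hox genes on each of the 11 arrays, coloured by group, with filled points well above background, open points not, and a bar at the geometric mean of each group. Hoxc5 and Hoxd12 vary little across the arrays, and Hoxd9 alone has its 5 luminal points open and its 6 basal points filled. Levels of different probes cannot be set against each other.

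In the Hoxc cluster, Hoxc4 differed widely between arrays of the same group and was above background on 5 arrays, while Hoxc5 varied little. Hoxc4 gave 2.52, 7.18 and 15.1 on the luminal arrays with shLUC, 2.66 and 2.81 on those with shROR2, 7.98, 27.6 and 51.5 on the basal arrays with shLUC, and 5.73, 131 and 34.5 on those with shROR2. The basal minus luminal difference was 1.73 ± 1.14 (SE; limma, adjusted p = 0.307) with shLUC, where arrays overlapped, and 3.49 ± 1.27 (SE; limma, adjusted p = 0.0836) with shROR2, where they did not. Both luminal shROR2 arrays were not above background, while 2 of 3 basal shROR2 arrays were. Against the luminal bound, the basal shROR2 mean was 2.23-fold higher, with the spread between arrays left out. The shROR2 difference was 3.73 with slide as a block (limma, adjusted p = 0.0494) and 4.67 without basal shROR2 replicate 1 (limma, adjusted p = 0.0152), and it passed in 3 of 23 alternatives. Hoxc5 lay between 111 and 162 on all 11 arrays, and its basal values were slightly below the luminal ones, by -0.22 (95% interval -0.48 to 0.04) and -0.17 (95% interval -0.46 to 0.12), neither of which passed the test.
Hoxc8 gave 23.3, 21.1 and 15.8 on the luminal arrays with shLUC, 14.2 and 22.0 on those with shROR2, 28.1, 31.3 and 31.3 on the basal arrays with shLUC, and 25.2, 22.0 and 19.7 on those with shROR2. Its basal shLUC arrays were above all others, with a difference of 0.55 ± 0.22 (SE; limma, adjusted p = 0.097) from luminal shLUC and 0.38 ± 0.24 (SE; limma, adjusted p = 0.304) between the shROR2 groups.
The tail end of the cluster was dim, with Hoxc10 at 65.8 in basal shROR2 2 and 2.68 to 13.2 elsewhere, Hoxc11 at 19.5 in basal shROR2 1 and 3.27 to 9.63 elsewhere, and Hoxc12 and Hoxc13 above background on no array. Hoxc6, at 13.4 in basal shLUC 3 and 16.9 in basal shROR2 3, was above background on those 2 arrays.

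In the Hoxa cluster, Hoxa7 was bright enough to be measured everywhere. It gave 58.6, 52.4 and 54.7 on the luminal arrays with shLUC, 55.5 and 59.6 on those with shROR2, 152, 68.9 and 82.8 on the basal arrays with shLUC, and 53.5, 67.6 and 68.7 on those with shROR2. The luminal values were close together and the basal shLUC values all higher, the highest in basal shLUC 1. The difference was 0.73 ± 0.29 (SE; limma, adjusted p = 0.0995) with shLUC and 0.18 ± 0.32 (SE; limma, adjusted p = 0.741) with shROR2. Within slides the shLUC difference was 0.91 and 0.19, and without basal shLUC replicate 2 it was 1.02 (limma, adjusted p = 0.0237).
Hoxa3, which patterns the thymus and parathyroid, ranged from 6.08 to 9.82 in luminal shLUC and from 9.78 to 11.6 in luminal shROR2, with basal values from 5.94 to 25.7, and was above background on 3 basal arrays. Hoxa13, a gene of the limb tips and the genital tract, lay between 37.5 and 66.0 on the 10 arrays where its tested spot was kept, with basal minus luminal differences of -0.23 and -0.32 and overlapping groups. Its other probe was above background on 1 array, so the 2 probes disagree. Hoxa5 reached 23.5 in basal shROR2 2 and was 2.21 to 9.73 elsewhere.

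In the Hoxb cluster, Hoxb4, known for its role in blood stem cells, was the tested member with the largest luminal excess among the shROR2 groups. It gave 15.9, 22.2 and 10.8 on the luminal arrays with shLUC, 25.5 and 38.2 on those with shROR2, 21.8, 10.7 and 13.3 on the basal arrays with shLUC, and 17.5, 14.3 and 6.05 on those with shROR2. Both luminal shROR2 arrays were above all others, and the basal minus luminal difference was -1.39 ± 0.52 (SE; limma, adjusted p = 0.0922) with shROR2 against -0.16 ± 0.47 (SE; limma, adjusted p = 0.835) with shLUC. The difference of these differences, -1.22 ± 0.70, did not pass (limma, adjusted p = 0.695). Hoxb2, a hindbrain gene, was above background on 4 arrays scattered over 3 groups, at 21.6 on luminal shROR2 1, at 16.5 on basal shLUC 1, at 14.1 on basal shLUC 2 and at 23.7 on basal shROR2 3. Hoxb6 gave 157 in basal shLUC 1 and 13.7 in basal shLUC 2 against 2.68 to 5.38 on the 9 other arrays. Hoxb5 was above background in basal shROR2 1 alone, at 12.9.

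**Figure D4:**
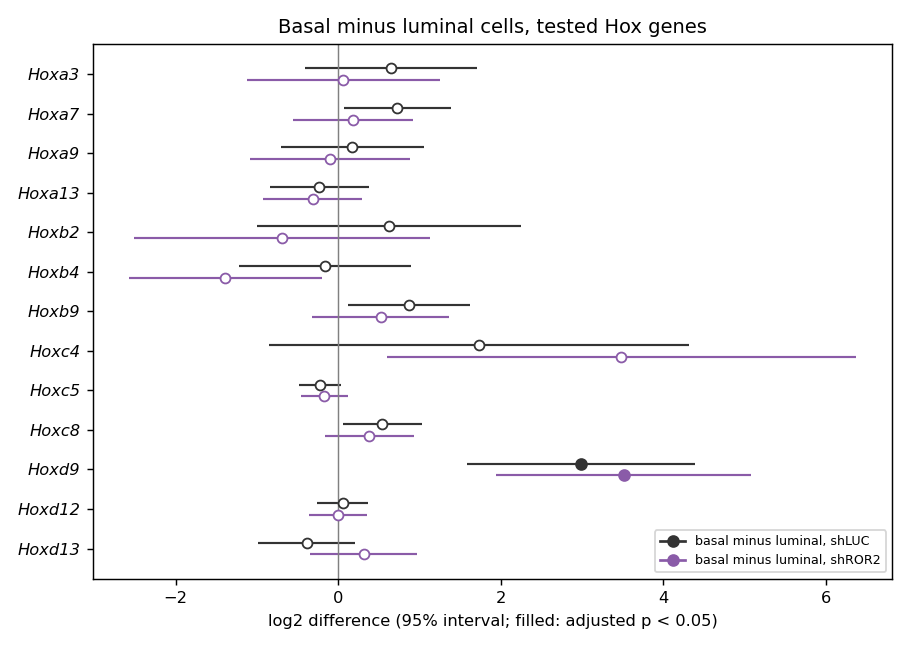
Basal minus luminal log2 difference with its 95% interval for the 13 tested Hox genes, in shLUC (dark) and shROR2 (purple) outgrowths. Only the points of Hoxd9, at 2.99 and 3.51, are filled (adjusted p under 0.05). Intervals run from narrow for Hoxc5 and Hoxd12 to wide for Hoxc4 and Hoxb2.

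Counted over the 13 tested members, 9 basal minus luminal differences were above 0 with shLUC, with a median of 0.55 against -0.06 over all features tested. With shROR2, 7 were above 0, with a median of 0.06 against -0.08. At an unadjusted p under 0.05 there were 4 members with shLUC, namely Hoxa7, Hoxb9, Hoxc8 and Hoxd9, beside 37.96% of all features, and 3 with shROR2, namely Hoxb4, Hoxc4 and Hoxd9, beside 34.97%. After scaling, basal and luminal arrays did not overlap for 5 members with shLUC, these 4 and Hoxc5, which was lower, beside 52.1% of all features, 23.7% as higher and 28.4% as lower. With shROR2 they did not overlap for 4, Hoxc4 and Hoxd9 as higher and Hoxb4 and Hoxc5 as lower, beside 45.6%, 19.7% as higher and 26% as lower. Since members had to be above background on 3 arrays to be tested, and more were so on basal arrays, these counts describe the 13 and not all 38. The brightest readings did not fall on the same array, with Hoxa7, Hoxb6 and Hoxd8 highest on basal shLUC 1 and Hoxa5, Hoxc4 and Hoxc10 on basal shROR2 2.

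None of the tested Hox genes was called between the hairpins in either cell type. In luminal cells limma called 0 of 13 members, beside 0.0034% of all features, and Hoxd13 alone had an unadjusted p under 0.05, against 5.55% of all features. Its signals of 20.2, 14.4 and 21.7 with shLUC and 9.07 and 14.8 with shROR2 overlapped, and the fitted difference was -0.71 ± 0.29 (SE; limma, adjusted p = 0.856). Both luminal shROR2 arrays were not above background, while 2 of 3 luminal shLUC arrays were. Against the bound of the shROR2 arrays, the shLUC mean of Hoxd13 was 1.35-fold higher, with the spread between arrays left out. After scaling, luminal shROR2 arrays were above all luminal shLUC arrays for Hoxa3, Hoxb2 and Hoxb4, beside 29% of features whose groups were separated in either direction, 14.8% as higher, and none passed the test. Hoxa3 was above background on 0 of 5 luminal arrays and Hoxb2 on 0 of 3 luminal shLUC arrays, so their order lies among readings near background, and the difference for Hoxb4 was 0.96 ± 0.52 (SE; limma, adjusted p = 0.997). In basal cells limma called 0 of 13, beside 0.948% of all features, 0.574% as lower, and 0 members had an unadjusted p under 0.05, against 15.8% of features.
Of the 13 basal differences 11 were below 0, with a median of -0.25 against -0.05 over all features. The largest was that of Hoxa7, -0.52 (95% interval -1.18 to 0.14; limma, adjusted p = 0.43). The other 25 members failed the filter. Fitted without it, their basal differences ran from -2.4 for Hoxb6 to 2.1 for Hoxc10, so the lean describes the 13 and not all 38. Hoxc8 was the member whose basal shROR2 arrays all lay below its basal shLUC arrays, a separation seen in either direction for 18.5% of features, 6.68% as higher and 11.8% as lower. For Hoxd9 the difference was -0.09 (95% interval -1.49 to 1.32) in basal cells, where the gene was measured on every array, so changes of over 1 on the log2 scale in either direction lie within the interval. In luminal cells Hoxd9 was dim in both groups and no fold was taken. The test of whether the hairpin difference itself differed between basal and luminal cells called 0 of 13 members and 0% of all features, and at an unadjusted p under 0.05 it had 0 members and 8.31% of features. The intervals of these differences were 0.776 wide for the best measured member and 7.75 for the worst.

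**Figure D5:**
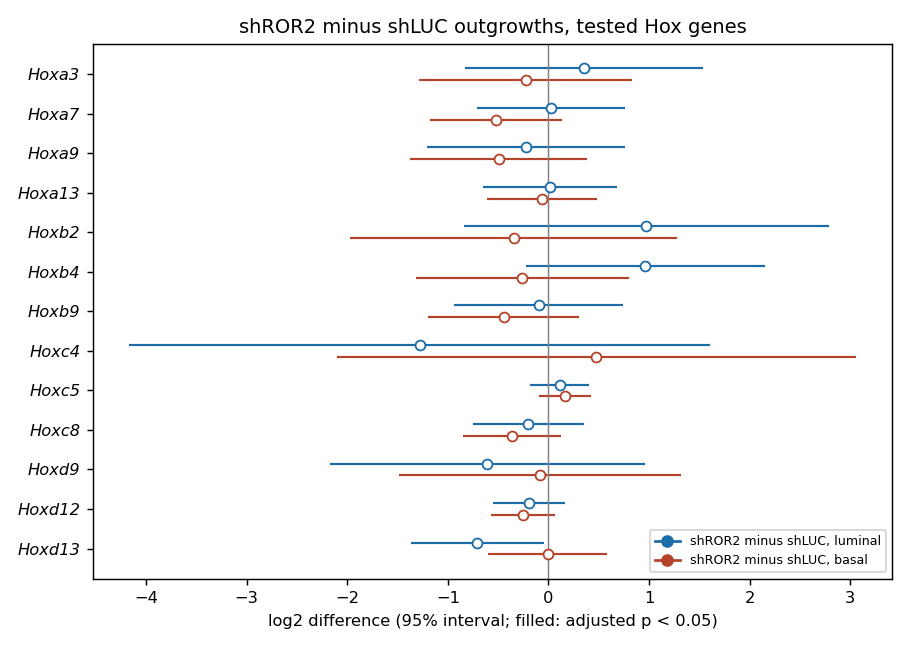
shROR2 minus shLUC log2 difference with its 95% interval for the 13 tested Hox genes, in luminal (blue) and basal (red) cells. All points are open, meaning that no adjusted p was under 0.05. In basal cells 11 of 13 points lie left of 0, and in luminal cells 7 of 13. The 25 members that failed the filter are not shown.

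Of 7 cofactors of Hox proteins tested, 3 rose and 0 fell in basal over luminal shLUC cells, beside 13.8% of all features called as higher. With shROR2, 2 rose and 0 fell, beside 10.6%. Pknox1, a partner of Hox proteins on DNA, rose by 0.68 ± 0.13 and 0.64 ± 0.15. Pknox2 gave 37.9, 10.8 and 4.43 in luminal shLUC and 138, 117 and 147 in basal shLUC cells, a fitted difference of 3.39 ± 0.68 (SE; limma, adjusted p = 0.00603) with 1 of 3 luminal arrays above background, and a fitted 4.08 ± 0.77 with shROR2, where it had only a bound, being above background on 0 of 2 luminal arrays. Pbx3 rose by 1.94 ± 0.32 (SE; limma, adjusted p = 0.00199) with shLUC and did not pass with shROR2, at 0.83 ± 0.35 (SE; limma, adjusted p = 0.129). Meis1 did not pass with either hairpin.

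Among the chromatin regulators of the clusters, 2 of 21 Polycomb genes tested rose and 3 fell in basal over luminal shLUC cells, beside 26.8% of all features called. With shROR2, 1 rose and 1 fell, beside 22.9%. Cbx6, a chromodomain subunit, rose by 1.69 ± 0.18 and 1.42 ± 0.20, while Bmi1, a ring finger subunit of the same kind of complex, fell by 1.38 and 1.18 on the log2 scale (limma, adjusted p = 0.00364 and 0.0162). Rbbp7 rose by 0.63 ± 0.12 and Ezh1, a histone methyltransferase, fell by 0.67 with shLUC. Of 9 trithorax and activator genes tested, Kdm6b, a demethylase that removes the Polycomb mark, rose by 1.03 ± 0.31 (SE; limma, adjusted p = 0.0362) with shLUC, and with shROR2 0 passed, Kdm6b standing at 0.61 ± 0.34, beside the same 26.8% and 22.9%. Cdx1, Cdx2 and Cdx4, activators of the clusters in the embryo, were above background on no array.

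Of 15 genes of the retinoic acid pathway tested, 3 rose and 3 fell in basal over luminal cells with each hairpin, beside 26.8% of all features called with shLUC and 22.9% with shROR2. Rarg, a nuclear receptor for retinoic acid, fell by 1.26 and 0.93 on the log2 scale (limma, adjusted p = 2.32e-05 and 0.000427), and Aldh1a3, an enzyme that makes retinoic acid, fell by 2.25 and 2.27. Cyp26b1, which degrades retinoic acid, rose by 1.15 ± 0.17 and 1.26 ± 0.19. The synthesis enzyme Aldh1a1 rose by 2.23 ± 0.22 with shROR2 (limma, adjusted p = 0.000147).

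Of 6 genes tested that flank the clusters, 2 rose and 3 fell in basal over luminal shLUC cells, beside 26.8% of all features called. With shROR2, 2 rose and 2 fell, beside 22.9%. Beside the Hoxc cluster, Calcoco1 rose by 1.33 ± 0.12 and 0.96 ± 0.14, and Smug1, a DNA repair enzyme, fell by 1.28 with shLUC. Beside the Hoxb cluster, Ttll6 rose by 1.46 ± 0.24 and 1.62 ± 0.27, and beside the Hoxa cluster, Skap2 fell by 0.42 and 0.88. Near the Hoxd cluster, Mtx2 fell by 1.11 with shROR2 (limma, adjusted p = 0.00773), opposite in direction to Hoxd9. The antisense RNA Hoxa11os, above background on all 11 arrays, stood at -0.44 ± 0.22 and -0.68 ± 0.24 in basal minus luminal cells and did not pass (limma, adjusted p = 0.18 and 0.0794), and Hoxd3os1 was above background on none. In both hairpin comparisons and in the difference between them, 0 of the tested genes of these 6 lists passed, beside the same 0.0034%, 0.948% and 0% of all features.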

How the data were processed

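RNA of 11 sorted samples was, per the labels' protocols, isolated with a PicoPure kit, amplified with a NuGEN whole-transcriptome kit, labelled with Cy3 and hybridised to one-colour arrays. Per the file headers, the processed signals were background-subtracted by Feature Extraction 11.0.1.1 and not normalised between arrays. The authors' deposited table of intensity values served as an alternative, its method of normalisation being not given in the sources used here.

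Spots of a probe were averaged without outlier spots. log2 values less the 75th percentile of the array were fitted with limma 3.58.1 in R 4.3.3 (lmFit, eBayes), as 4 group means without covariates. Features above background on at least 3 arrays were tested, a gene by its probe with the highest mean. The 29443 features comprised 14073 named genes and 15370 unnamed probes, and 14 lacked an array. Accessions named 26582 of 55681 probes through a GRCm38.p6 table. p-values were two-sided and adjusted by Benjamini-Hochberg over all features, with a threshold of 0.05. Normexp (offset 50) used the median signal, since the files hold no mean signal. The number of arrays limits the precision. The fit was tested on simulated data with normal noise, equal spread in all groups and no detection limit. That test does not cover signals near background.

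All 38 members were reported, those called with every array, and other genes only from fixed lists (cofactors, Polycomb, trithorax and activators, retinoic acid, flanking genes, cluster noncoding RNAs, cell type markers), at most 4 per list and comparison by smallest p. Members and lists were chosen with earlier results of these data known. A gene of the cofactor list is not reported here and is left out of that list's counts.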

Additional observations from a re-analysis of the deposited data

How the results depend on the processing

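Results of the tests were recomputed under up to 24 alternatives, fewer where a setting gave no value, and the count of members above background under 12. Hoxd9 passed in 24 of 24 with shLUC (differences of 0.83 to 3.35; limma, adjusted p = 0.00217 to 0.0267) and in 23 of 24 with shROR2 (0.81 to 3.96; limma, adjusted p up to 0.0543). The count of members called between basal and luminal shLUC cells was 2 instead of 1 under normexp, in the authors' table, with only the groups compared and with array weights, each adding Hoxb9, and 1 to 2 with an array left out. With shROR2 it was 2 in the authors' table (adding Hoxb4), without a filter (Hoxc9), with the slide block and with a robust prior (both Hoxc4), and 0 to 2 with an array left out. The cause of these changes was not tested. With the replicate number as a block the counts were 1 and 1, and no call changed for any member. With that block, 37 features were called between the hairpins in basal cells, against 279 without it. Deviations of same-numbered samples correlated at -0.0376 to 0.0403 (median 0.0207) against -0.0676 to 0.0524 (median -0.00757) for other pairs, none over 0.1. Such correlations cannot tell whether samples shared an outgrowth. The numbers were not taken as pairs because the labels do not say that they mark a shared outgrowth. In both hairpin comparisons and their difference 0 members were called under every alternative run. The gap in members above background, 4.67 per array, was 3.23 with a common limit and 4.42 to 4.92 with an array left out. Signs of uncalled differences were less stable: of 13 members, 4 changed sign in some alternative with shLUC, 5 with shROR2, 5 and 7 in the luminal and basal hairpin comparisons and 8 in their difference. Over all features, calls ranged from 5829 to 11356 with shLUC, 2823 to 7909 with shROR2, 0 to 62 and 0 to 879 in the luminal and basal hairpin comparisons and 0 to 22 in their difference. With at most 3 arrays a group, and signals of most members near background, small changes were not detectable.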
